A study of Mus musculus with 15 samples.

Results

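Single proximal tubules microdissected from mouse kidney and labelled PTS2 were compared with whole kidney, and the differences were read by function: what the tubule takes up, secretes and metabolises. The PTS2 libraries were those of the deposited table apart from replicate 3 of set m3, which was left out because it carries transcripts of the thick ascending limb. This left 11 PTS2 libraries and 3 whole kidney libraries of the 15 in the series. All came from male C57BL/6 mice aged 2 months, and the labels name no treatment, transgene or mutant genotype. RNA with polyA tails was amplified with a kit for very low input (SMART-Seq V4) and sequenced on an Illumina instrument.

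The PTS2 libraries fall into sets m1 (4 libraries), m2 (4 libraries) and m3 (3 libraries used). The labels do not say what a set is, and libraries of one set may share an animal. The set was therefore kept as a correlated block in the test, and the p-values measure the spread between these libraries, which may be partly technical. Values are TPM, transcript abundance per transcript length scaled to a common total, so levels of different genes can be set side by side but the sequencing depth is unknown. A difference is the PTS2 mean minus the whole kidney mean of log2(TPM + 1), a scale that shrinks the changes of rare transcripts. A gene is called higher or lower where the limma adjusted p was under 0.05 and the difference was past 1.5-fold. Of the 12069 genes tested, 3.84% were higher and 26.0% lower by this rule, and for 5.79% and 32.6% every tubule lay above or below every kidney library. Each count of list members is to be read against these shares. The median difference over all genes tested was -0.27, and 12.9% of the calls were higher. Scaling moved both: the median was -0.01 after median-of-ratios rescaling and 0.16 after quantile normalization, where 35.5% and 59.1% of the calls were higher. Where either scaling moved a list's count by over 1.5 times, the members higher and lower under it follow in parentheses, marked by ratios and by quantiles. In bulk samples, fewer cells of a type and less RNA per cell cannot be told apart.

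The proximal tubule follows the glomerulus and recovers most of the filtered sugar, amino acids, phosphate, bicarbonate, protein and salt through transporters of its brush border and its basolateral membrane. It also takes up organic anions and cations from the blood and secretes them, burns fatty acids, makes glucose and ammonia, and converts drugs and hormones. It is divided into the S1, S2 and S3 segments, which differ in these tasks: the bulk of glucose and amino acids is recovered early, and the last segment is rich in peroxisomes and in enzymes of glutathione breakdown.

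Marker genes of the label were compared with whole kidney. The 4 PTS2 markers were abundant in every tubule. Slc22a7 (ENSMUSG00000067144), which encodes an organic anion transporter (OAT2), was at 644 to 1711 TPM (median 1301) in PTS2 and at 418, 299.6 and 283 TPM in whole kidney. Cyp2a4 (ENSMUSG00000074254), a steroid-hydroxylating cytochrome P450, was at 1059 to 1527 TPM (median 1306) and 369, 389 and 394 TPM. In both, the tubules were the higher group without exception. Napsa (ENSMUSG00000002204), an aspartic protease of the proximal tubule, was at 3470.4 to 10874 TPM (median 7392) and 2519.9, 2936 and 2774 TPM. Slc27a2 (ENSMUSG00000027359), a fatty acid transporter and acyl-CoA synthetase, was at 6904 to 11041 TPM (median 9498) and 4363, 5131 and 4366 TPM. For each of these genes, every tubule lay above every kidney library, and the log2 differences were 1.83, 1.77, 1.43 and 0.98 in that order. The S1 genes Slc5a2, Slc5a12 and Gatm were near 0, with PTS2 medians of 0.72, 0.09 and 3.2 TPM against kidney means of 621, 119 and 1181 TPM. Among genes usually assigned to S2 and S3, Slc22a6 did not pass the test, Slc22a8 was lower, and Slc7a13, a gene usually assigned to S3 in mouse, was among the abundant genes that were higher. Their values are given with their functions. The series holds no tubules labelled S1 or S3, so the markers show levels against whole kidney only. Whether these tubules are S2 rather than S3 was not tested.

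Reference promoter sequences are shown for 4 genes on which the results turn and for which the RefSeq table (GRCm38.p6) holds an entry: Cyp2a4, Slc5a10 and Slc27a2, which were higher in PTS2, and Gatm, which was lower. Each runs 5′ to 3′ along the gene's strand, from 250 bases before to 50 bases after the annotated start, and the build has the same primary assembly as the patch release in the submitters' processing notes. Capitals mark matches on either strand to an HNF1 element (GTTAAT), an HNF4 core (CAAAGTCCA), a nuclear receptor element (AGGTCA) or a TATA box (TATAAA). Matches to different motifs shared no base in these 4 windows. The other entry of Slc5a10 (chr11:61719936-61720235, minus strand), not printed, held no match to any of the 4 motifs.
Cyp2a4, chr7:26306942-26307241, plus strand: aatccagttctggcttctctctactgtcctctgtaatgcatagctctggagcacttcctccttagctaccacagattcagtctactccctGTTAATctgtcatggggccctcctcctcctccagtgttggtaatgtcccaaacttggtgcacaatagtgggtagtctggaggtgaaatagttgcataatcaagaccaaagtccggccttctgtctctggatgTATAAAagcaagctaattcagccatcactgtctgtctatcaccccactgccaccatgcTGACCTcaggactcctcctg
Slc5a10, first of 2 entries, chr11:61720750-61721049, minus strand: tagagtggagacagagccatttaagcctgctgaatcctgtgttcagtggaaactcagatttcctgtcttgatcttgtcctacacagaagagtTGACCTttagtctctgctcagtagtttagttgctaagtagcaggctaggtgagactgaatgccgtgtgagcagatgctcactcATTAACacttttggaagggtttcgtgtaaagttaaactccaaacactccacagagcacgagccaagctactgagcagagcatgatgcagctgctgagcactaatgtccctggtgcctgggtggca
Slc27a2, chr2:126552774-126553073, plus strand: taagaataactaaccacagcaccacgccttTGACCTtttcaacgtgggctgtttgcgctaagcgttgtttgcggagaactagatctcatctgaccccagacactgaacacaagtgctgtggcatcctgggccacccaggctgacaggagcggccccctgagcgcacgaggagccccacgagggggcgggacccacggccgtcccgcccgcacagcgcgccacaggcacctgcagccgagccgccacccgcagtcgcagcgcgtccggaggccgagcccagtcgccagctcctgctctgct
Gatm, chr2:122611228-122611527, minus strand: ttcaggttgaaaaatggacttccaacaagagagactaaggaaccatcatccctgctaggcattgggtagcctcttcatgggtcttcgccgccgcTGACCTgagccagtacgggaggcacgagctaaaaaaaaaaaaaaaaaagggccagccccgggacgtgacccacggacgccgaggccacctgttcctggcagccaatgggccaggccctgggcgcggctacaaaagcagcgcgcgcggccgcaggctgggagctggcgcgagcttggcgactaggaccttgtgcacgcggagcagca
The HNF1 element was found in 10.4% of the 412 promoters of genes called higher (335 of 464 genes had an entry) and in 4.91% of the 3198 promoters of genes called lower. It was found in 5% of the 11443 promoters of genes tested and in 7.1% of all 32851 promoters of this length. For the HNF4 core the shares were 1.94%, 0.25%, 0.437% and 0.475%, for the nuclear receptor element 16%, 13.1%, 12.9% and 16.3%, and for the TATA box 12.1%, 7.82%, 7.32% and 13.6%. A match is a run of letters and not a shown binding site.

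Genes for the transport of organic anions, cations and drugs were higher in sum. Of the 30 members tested, 7 were higher (4 without whole kidney replicate 3) and 3 lower (15 and 3 by ratios, 12 and 3 by quantiles), and the median log2 difference was 0.34. Summed over the list, PTS2 libraries held 11347 to 13728 TPM (median 11965), above the 7656 to 8643 TPM of the kidney libraries. Slc22a7 had the largest log2 difference, 1.83 ± 0.26 (SE; adjusted p = 2.42e-05, limma). Slc22a2, the basolateral organic cation transporter OCT2, was at 544 to 739 TPM (median 612) in PTS2 and at 327, 336 and 281 TPM in kidney. Every tubule lay above every kidney library, with a log2 difference of 1.01 ± 0.09 (SE; adjusted p = 1.41e-07, limma). Slc17a3, a phosphate and urate carrier of the brush border, had a log2 difference of 0.80. The related Slc22a13, a urate and nicotinate carrier, was also called higher (log2 difference 1.70), but its range of 87 to 487 TPM (median 278) reached down into the kidney values of 99.6, 78.1 and 79.3 TPM. The classic pair for the uptake of para-aminohippurate split. Slc22a6 (OAT1) was at 339 to 988 TPM (median 603) in PTS2 and 512, 511 and 435 TPM in kidney, the groups overlapped, and the log2 difference of 0.21 ± 0.31 (SE; adjusted p = 0.606, limma) did not pass. Slc22a8 (OAT3) was at 24.7 to 161 TPM (median 62.3) and 269.7, 261 and 284 TPM, with no overlap and a log2 difference of -2.17 ± 0.47 (SE; adjusted p = 0.0014, limma). Abcc4, an efflux pump for organic anions, was lower too (log2 difference -2.88).

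Sugar carriers of one gene family moved in opposite directions. Of the 18 sugar and monocarboxylate carriers tested, 3 were higher and 9 lower, with a median log2 difference of -0.79, and their summed level was 66.1% of the kidney mean. The sums were 1006 to 1388 TPM in PTS2 and 1767 to 1845 TPM in kidney, where Slc5a2 alone held 590.2 to 655 TPM. The list was not summed without Slc5a2, so the lower sum may rest on this gene. Slc5a2, the high-capacity glucose cotransporter SGLT2 of S1, was at 0 to 1.38 TPM (median 0.72) in PTS2 and 590.2, 619 and 655 TPM in kidney, a log2 difference of -8.59 ± 0.25 (SE; adjusted p = 9.72e-14, limma). The tubules and the kidney libraries were far apart, with no tubule reaching 2 TPM. Slc5a10, which encodes the mannose and fructose cotransporter SGLT5, was at 239 to 411 TPM (median 331) and 145, 136 and 152 TPM. Here each tubule exceeded each kidney library, with a log2 difference of 1.16 ± 0.13 (SE; adjusted p = 2.05e-06, limma). Slc5a8, a sodium-coupled monocarboxylate transporter, was higher (log2 difference 0.98). Slc2a5, the fructose transporter GLUT5, was called higher (log2 difference 0.80), at 70.8 to 183 TPM (median 141) against 68.9, 68.3 and 83.3 TPM, values that overlapped. Slc5a1, the low-capacity glucose cotransporter SGLT1 of the late proximal tubule, was at 43.1 to 72.5 TPM (median 60.9) and 48.1, 44.8 and 53.1 TPM and did not pass (log2 difference 0.28, limma adjusted p = 0.099). Slc2a2, the basolateral glucose exit GLUT2, was lower, at 35.1 to 78.4 TPM (median 48.9) against 119, 123 and 112 TPM (log2 difference -1.27). The lactate carriers Slc5a12 and Slc16a7 were close to absent, with PTS2 medians of 0.09 and 0.18 TPM and log2 differences of -6.75 and -6.10.

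Amino acid and peptide carriers were called in both directions more often than not. Of 24 tested, 8 were higher and 10 lower, the median log2 difference was -0.23, and the summed level overlapped between the groups at 6587 to 8720.4 TPM (median 7774) against 6762 to 6997 TPM. The higher members included Slc7a13, a cystine and acidic amino acid carrier, which was at 1367 to 2140.5 TPM (median 1822) in PTS2 and 758, 909 and 652 TPM in kidney. The groups did not overlap, and the log2 difference was 1.21 ± 0.12 (SE; adjusted p = 7.09e-07, limma). Slc38a3, the glutamine transporter SNAT3, was at 33.7 to 105 TPM (median 59.5) and 26.1, 15.1 and 22.4 TPM, also without overlap, and had a log2 difference of 1.54 ± 0.28 (SE; adjusted p = 0.000319, limma). Slc6a18, a luminal transporter for glycine and other neutral amino acids, was higher (log2 difference 1.04), and so was Slc1a4, a neutral amino acid exchanger (log2 difference 1.10). Slc3a1, the rBAT heavy chain that pairs with cystine carriers, was higher (log2 difference 0.90). The acidic amino acid carrier Slc1a1 was higher (log2 difference 0.73).

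Several of the lower amino acid carriers serve neutral and cationic amino acids. Slc6a19, the main luminal neutral amino acid transporter B0AT1, was at 8.41 to 14.3 TPM (median 10.2) in PTS2 and 203, 267 and 281 TPM in kidney. No tubule came near a kidney library, and the log2 difference was -4.41 ± 0.14 (SE; adjusted p = 2.09e-13, limma). On the basolateral side, Slc3a2, the 4F2 heavy chain, was lower (log2 difference -2.16). Its light chains Slc7a8 and Slc7a7, which carry neutral and cationic amino acids out of the cell, were lower (log2 differences -3.85 and -2.44). Slc7a9, the luminal light chain b0,+AT that partners Slc3a1, was lower as well, at 51.8 to 109 TPM (median 82.4) against 170.3, 153 and 180.5 TPM (log2 difference -1.07), so the 2 chains of this carrier moved in opposite directions. The plot of transporter levels shows these genes in each library.

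**Figure D1:**
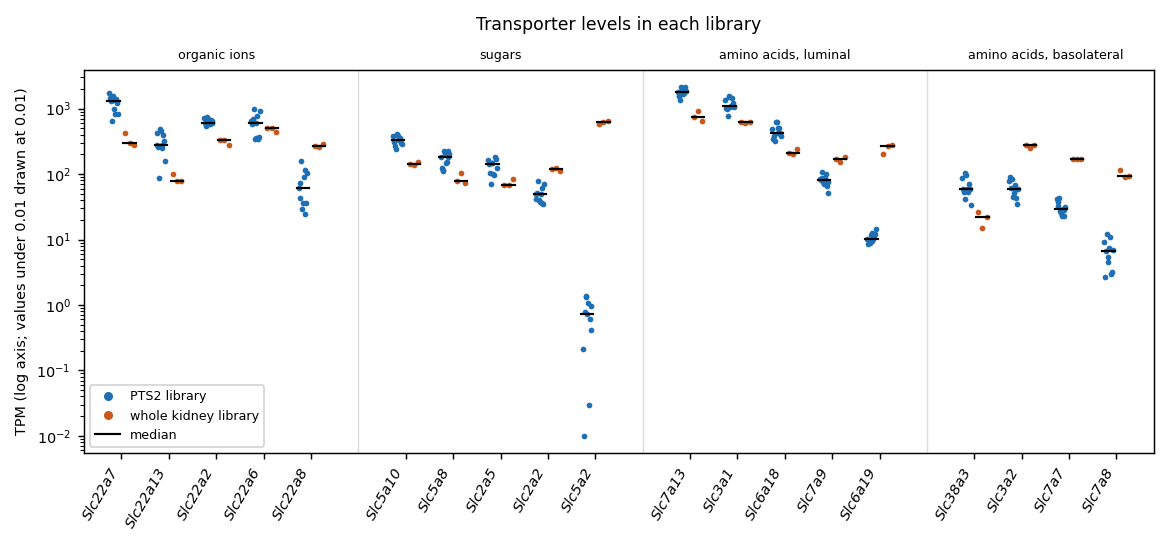
Level in TPM (log axis) of 19 transporter genes in each of the 11 PTS2 libraries (blue) and 3 whole kidney libraries (orange), with the median of each group as a bar. Slc22a7, Slc5a10, Slc7a13 and Slc38a3 lie higher in every tubule than in every kidney library, and Slc5a2, Slc6a19 and Slc7a8 lower.

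Among 13 phosphate, sulfate and dicarboxylate carriers, 1 was higher (2 without whole kidney replicate 2) and 3 were lower. The counts were 3 and 2 by ratios, and 1 and 2 by quantiles. The calls are 7.69% and 23.1% of the list, where 3.84% and 26.0% of all genes were called. The median log2 difference was -0.26. Slc13a2, the citrate and dicarboxylate carrier NaDC1 of the brush border, was at 83.3 to 118 TPM (median 102) against 55.8, 54.3 and 72.3 TPM and was higher (log2 difference 0.73). Slc34a1 (NaPi-IIa), the main phosphate cotransporter, was at 2336 to 5082 TPM (median 3325) against 4444, 4628 and 4559 TPM and was not called (log2 difference -0.46, limma adjusted p = 0.1). It was called lower after quantile normalization and with the replicate number as a block (-0.65 in both), and with replicate 4 of each tubule set left out (-0.67). Its relative Slc34a3 (NaPi-IIc) had a PTS2 median of 0.23 TPM and a kidney mean of 68.2 TPM, a log2 difference of -5.74.

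Machinery for bicarbonate, proton and sodium recovery was lower in sum, at 72.5% of the kidney mean, with 2 members higher and 7 lower of 19. Within the carbonic anhydrases, which interconvert carbon dioxide and bicarbonate, the members parted. Car5a, the mitochondrial enzyme, was at 8.17 to 39.5 TPM (median 20.9) in PTS2 and 5.86, 3.3 and 5.25 TPM in kidney, did not overlap, and had the largest upward log2 difference of all named genes, 1.90 ± 0.38 (SE; adjusted p = 0.00068, limma). Cytosolic Car2, with a PTS2 median of 51.5 TPM and a kidney mean of 562 TPM, was lower (log2 difference -3.45). Of the membrane-bound enzymes, Car14 and Car12 were lower (log2 differences -2.78 and -5.05), while Car4 did not pass (log2 difference 0.24, limma adjusted p = 0.493). The apical sodium-proton exchanger Slc9a3 (NHE3) and the basolateral sodium bicarbonate cotransporter Slc4a4 (NBCe1) were lower (log2 differences -1.83 and -1.26). Car2, Car12 and Slc4a4 are also expressed outside the proximal tubule.

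Genes of receptor-mediated protein uptake form the endocytosis list. Of its 17 members, 1 was higher and 3 were lower (1 and 2 by ratios, 1 and 1 by quantiles). The calls are 5.88% and 17.6% of the list, where 3.84% and 26.0% of all genes were called. The scavenger receptors Lrp2 (megalin) and Cubn (cubilin), chosen after their values were seen, had PTS2 medians of 93.2 and 27.4 TPM and kidney means of 101 and 27.8 TPM. Neither passed (log2 difference -0.03 for both, limma adjusted p = 0.859 and 0.828). Lrpap1, the chaperone that escorts megalin, was the higher member (log2 difference 0.80). Anxa2, a membrane-binding protein, was lower (log2 difference -4.72). Of 30 lysosomal genes, 2 were higher and 6 lower (5 and 3 by ratios, 5 and 6 by quantiles); only 1 was higher without whole kidney replicate 3, m1 replicates 1, 3 or 4, or m3 replicates 1, 2 or 4. The list had Glb1 (beta-galactosidase) higher (log2 difference 0.68) and Hexa and Ctsc (a hexosaminidase subunit and cathepsin C) lower (log2 differences -4.25 and -4.15).

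The list of brush border peptidases had the highest summed level relative to kidney among the plotted lists, and a lysosomal member held much of that sum. Its members summed to 12010 to 19896 TPM (median 15513) in PTS2 and 7134 to 8325 TPM in kidney, without overlap, or 212% of the kidney mean. Of 15 members tested, 7 were higher and 2 lower. Napsa, a protease of lysosomes and not of the brush border, had a PTS2 median of 7392 TPM and a log2 difference of 1.43 ± 0.27 (SE; adjusted p = 0.000474, limma). Without it the list summed to 7805 to 10039 TPM in PTS2 and 4360 to 5389 TPM in kidney, or 173% of the kidney mean. Without Cndp2, a cytosolic dipeptidase, as well, it was at 179%, and 5 of 13 members tested were higher and 2 lower. The peroxisomal enzymes described next were at 169% with Slc27a2, their most abundant gene, included, and were not summed without it. The meprin subunits Mep1a and Mep1b, angiotensin-converting enzyme (Ace) and gamma-glutamyltransferase (Ggt1), which starts the breakdown of luminal glutathione, were higher (log2 differences 0.99, 1.42, 0.91 and 0.84). Mep1a was at 1063 to 1846 TPM (median 1414) against 719.9, 757 and 699 TPM. Ggt1 was at 2555 to 3086 TPM (median 2697) against 1563, 1649 and 1453 TPM. Both genes were higher in each tubule than in each kidney library, while Mep1b overlapped between the groups. Dpep1, the dipeptidase that acts after Ggt1 on glutathione, ran the other way, at 2.19 to 7.73 TPM (median 4.46) against 142, 113 and 125 TPM. This is a log2 difference of -4.60 ± 0.27 (SE; adjusted p = 5.46e-10, limma), again without overlap. Carboxypeptidase M (Cpm) was lower (log2 difference -3.03).

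Genes of fatty acid breakdown were higher in sum, in the peroxisome and in the mitochondrion. The peroxisome shortens very long and branched fatty acids and oxidises D-amino acids and other substrates. Of 30 peroxisomal enzymes tested, 12 were higher and 1 was lower (20 and 1 by ratios, 13 and 1 by quantiles), with a median log2 difference of 0.51. Their summed level was 24125 to 32365 TPM (median 29071) in PTS2 and 15975 to 18226 TPM in kidney, and no tubule overlapped a kidney library. Slc27a2, the acyl-CoA synthetase that activates very long fatty acids, was the most abundant gene of the list and had a log2 difference of 0.98 ± 0.13 (SE; adjusted p = 1.7e-05, limma). Acox2, the branched-chain acyl-CoA oxidase, was at 171 to 342 TPM (median 278) against 119, 114 and 97 TPM. Each tubule was above the highest kidney library, and the log2 difference was 1.29 ± 0.17 (SE; adjusted p = 1.47e-05, limma). Crot, which exports shortened chains as carnitine esters, Ehhadh, the bifunctional enzyme, and Amacr, a racemase of branched chains, had log2 differences of 1.11, 1.08 and 1.08. Nudt19, a coenzyme A hydrolase, rose from a kidney mean of 2009 to a PTS2 median of 3649 TPM (log2 difference 0.98). The lower member was Idh1, the NADP-dependent isocitrate dehydrogenase of cytosol and peroxisome (log2 difference -1.94).

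In the mitochondrial pathway, 3 of 20 members were higher and 3 lower (9 and 3 by ratios, 3 and 3 by quantiles), with a median log2 difference of 0.23 and a summed level at 138% of the kidney mean, without overlap. The sum includes the abundant Acadm and was not taken without it. Acadm, the medium-chain acyl-CoA dehydrogenase, was at 1448 to 3349 TPM (median 2235) against 1228, 983 and 1018 TPM. All tubules were above all kidney libraries, with a log2 difference of 1.11 ± 0.21 (SE; adjusted p = 0.000494, limma). Cpt2, which receives fatty acids inside the mitochondrion, and Acadl, the long-chain dehydrogenase, had log2 differences of 0.93 and 0.73. Cpt1a, the entry step in kidney and liver, did not pass (log2 difference -0.03, limma adjusted p = 0.873). Acaa2, the mitochondrial thiolase, was lower, from 415 TPM in kidney to a PTS2 median of 60.4 TPM (log2 difference -2.59). Acsl1, which activates long-chain fatty acids, was lower (log2 difference -1.61). Over all genes, Acot1, a cytosolic acyl-CoA thioesterase, was among those with the largest upward differences (log2 difference 1.47).

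**Figure D2:**
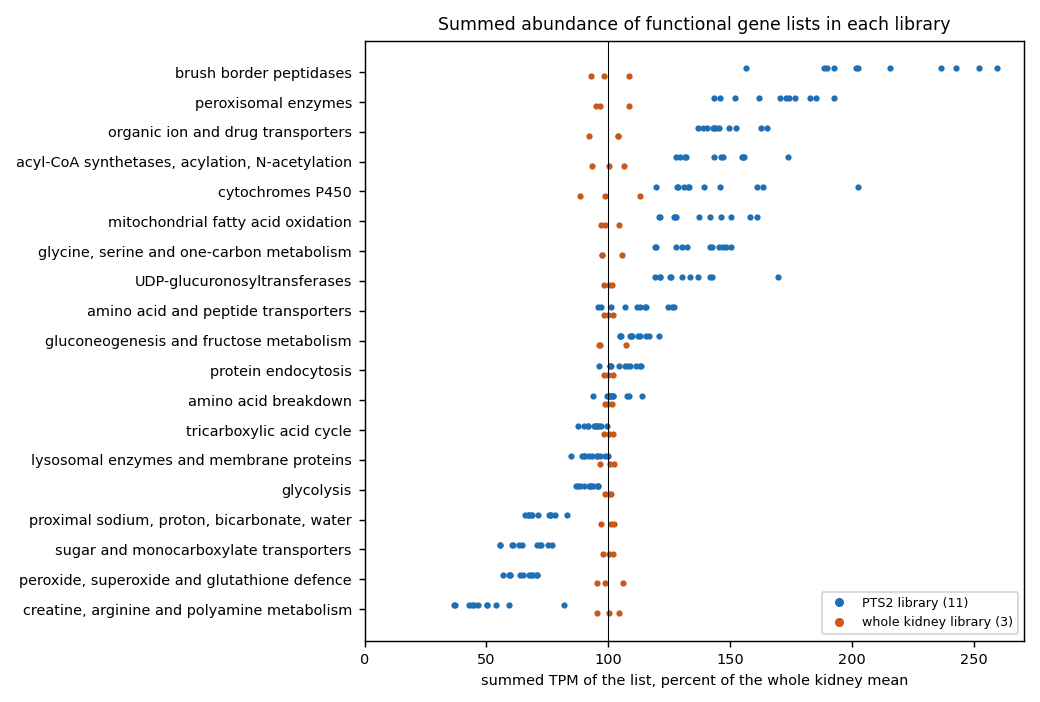
Summed TPM of 19 functional gene lists in each library, as a percent of the whole kidney mean, with PTS2 libraries in blue and whole kidney libraries in orange. The list of brush border peptidases, Napsa included (mean 212%), and peroxisomal enzymes (mean 169%) lie farthest above the kidney. The list for creatine, arginine and polyamines, Gatm included (mean 49.8%), lies farthest below it.

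The list for glucose production and fructose use had calls in both directions, and the glycolysis genes that were called were lower. Of 13 genes of gluconeogenesis and fructose use, 1 was higher and 2 were lower (2 and 0 by ratios, 1 and 1 by quantiles). The calls are 7.69% and 15.4% of the list, where 3.84% and 26.0% of all genes were called. Khk, ketohexokinase, which commits fructose to metabolism, was at 1072 to 1267 TPM (median 1186) against 658, 757 and 658 TPM and was higher (log2 difference 0.77), in the same direction as the fructose carriers Slc5a10 and Slc2a5. Fbp1, the fructose bisphosphatase of gluconeogenesis, did not pass (log2 difference 0.13, limma adjusted p = 0.081), and its muscle relative Fbp2 was lower (log2 difference -0.79), a call lost with median-of-ratios rescaling and quantile normalization (-0.51 and -0.48). Pck1 and G6pc, the first and last enzymes of gluconeogenesis and named after their values were seen, had PTS2 medians of 1918 and 332 TPM, kidney means of 1935 and 377 TPM and adjusted p of 0.948 and 0.55 in limma. In glycolysis, 0 of 15 members were higher and 6 lower (1 and 4 by ratios, 0 and 3 by quantiles). Hk1 (hexokinase) had a PTS2 median of 0.51 TPM and a kidney mean of 46.1 TPM, and Pkm (pyruvate kinase M) stood at 20.8 and 167 TPM, so they had log2 differences of -4.78 and -2.85. These forms are typical of distal segments and other cells. Of 21 genes of the tricarboxylic acid cycle, 0 were higher and 2 lower (1 without whole kidney replicate 3) (0 and 0 by ratios, 0 and 2 by quantiles). Of 81 nuclear subunits of oxidative phosphorylation 1 was higher and 4 were lower, or 7 without replicate 4 of each tubule set (2 and 3 by ratios, 0 and 7 by quantiles). Both lists were under the shares of all genes.

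Ammonia production begins with glutamine, which Slc38a3 brings into the cell. Gpt, alanine aminotransferase, was higher (log2 difference 0.92). Got1, the cytosolic aspartate aminotransferase, was lower (log2 difference -1.65). Over the list, 3 of 11 members were higher and 2 lower (1 without whole kidney replicate 2, m2 replicate 2, or m3 replicates 1 or 2) (4 and 1 by ratios, 3 and 1 by quantiles).

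Genes of glycine, serine and sulfur amino acid metabolism were called in both directions. Of 24 members tested, 5 were higher and 7 lower (11 and 5 by ratios, 9 and 4 by quantiles), so the balance of calls turned with the scaling. The lower calls are 29.2% of the list, near the 26.0% of all genes. The higher calls are 20.8%, where 3.84% of all genes were higher. The list's summed level was 3377 to 4265 TPM (median 4026) in PTS2 against 2758 to 2991 TPM, without overlap, or 137% of the kidney mean. Cbs, cystathionine beta-synthase, was at 246 to 598 TPM (median 417) against 165, 232 and 168 TPM. No tubule fell into the kidney range, and the log2 difference was 1.12 ± 0.22 (SE; adjusted p = 0.000603, limma). Its follower in the route to cysteine, Cth, was higher (log2 difference 0.80). Dmgdh, which demethylates dimethylglycine, and Bhmt2, which remethylates homocysteine, were higher (log2 differences 1.18 and 1.06). The serine synthesis enzymes Phgdh and Psat1 were lower (log2 differences -2.60 and -2.57). Gldc, the decarboxylase of the glycine cleavage system, was at 0.33 to 17 TPM (median 4.37) against 65.1, 72.5 and 89.7 TPM and was lower, with a log2 difference of -4.05 ± 0.60 (SE; adjusted p = 3.95e-05, limma). The tubules were all below the kidney, but spread widely among themselves.

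Genes of creatine, arginine and polyamine metabolism had the lowest summed level relative to kidney among the plotted lists, at 49.8%, with 1 member higher and 7 lower of 14 (1 and 6 by ratios, 2 and 6 by quantiles). Gatm held 1063 to 1290.4 TPM of the kidney sums of 3434 to 3767 TPM. The list was not summed without Gatm, so its rank may rest on this gene. The higher call was lost without whole kidney replicates 2 or 3, m1 replicate 2, or m2 replicates 2, 3 or 4. Gatm, which makes the creatine precursor guanidinoacetate, was at 1.44 to 7.56 TPM (median 3.2) in PTS2 and 1290.4, 1063 and 1189 TPM in kidney. Every tubule was below 10 TPM, and the log2 difference was -8.12 ± 0.30 (SE; adjusted p = 1.41e-12, limma). The creatine kinases Ckb and Ckmt1 were lower (log2 differences -6.43 and -5.78), and so was ornithine aminotransferase, Oat (log2 difference -4.22). Ass1 and Asl, the paired enzymes by which the kidney makes arginine from citrulline, were lower as well. Ass1 was at 111 to 266 TPM (median 156) against 329.7, 308 and 314 TPM. Asl was at 75.1 to 139 TPM (median 92.4) against 196, 191 and 239 TPM. Both were below the kidney in every tubule, with log2 differences of -1.03 and -1.08.

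In the breakdown of other amino acids, 9 of 36 members were higher and 8 lower (14 and 4 by ratios, 11 and 8 by quantiles). Hpd, of tyrosine breakdown, was at 119 to 206 TPM (median 154) against 44.6, 61.5 and 67.3 TPM. The groups did not overlap, and the log2 difference was 1.44 ± 0.16 (SE; adjusted p = 2.32e-06, limma). Csad, which makes the taurine precursor, and Haao, of the kynurenine route, were higher (log2 differences 1.07 and 1.02), as was Ido2, which opens that route (log2 difference 1.46). Prodh2, hydroxyproline dehydrogenase, had a PTS2 median of 0.41 TPM and a kidney mean of 71.6 TPM, a log2 difference of -5.61. Acmsd, which diverts kynurenine products from NAD synthesis, was lower (log2 difference -1.43). Dpys, of pyrimidine breakdown, was among the genes with the largest upward differences over all genes (log2 difference 1.48).

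Enzymes for foreign compounds were mixed by family member. The cytochromes P450 oxidise drugs, fatty acids and steroids: of 36 tested, 6 were higher and 13 lower (10 and 12 by ratios, 11 and 9 by quantiles), and the summed level of 14519 to 24581 TPM (median 16130.3) lay above the 10730.2 to 13725 TPM of the kidney libraries. Cyp2a4 had a log2 difference of 1.77 ± 0.10 (SE; adjusted p = 3.15e-10, limma). Its near-identical neighbour Cyp2a5 did not pass (log2 difference 0.24, limma adjusted p = 0.64), with a PTS2 median of 104 and a kidney mean of 94.4 TPM, and how reads were shared between such copies is uncertain. Cyp4a10 and Cyp4a31, fatty acid omega-hydroxylases, were higher (log2 differences 1.71 and 1.36), and so was Cyp2d9 (log2 difference 1.59). Cyp2d26 was lower, at 4.6 to 15.5 TPM (median 7.43) against 179.7, 149.5 and 175 TPM (log2 difference -4.28). The enzymes that set the level of active vitamin D were lower: Cyp24a1, which inactivates it (log2 difference -4.45), and Cyp27b1, which makes it (log2 difference -2.76). Cyp27b1 was rare in both groups, with a kidney mean of 7.09 TPM.

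Conjugating and hydrolysing enzymes were also called in both directions. Of 11 UDP-glucuronosyltransferases, 3 were higher and 3 lower (5 and 3 by ratios, 5 and 3 by quantiles): Ugt2b37 and Ugt3a1 were higher (log2 differences 1.11 and 0.94), and Ugt2b34 was lower (log2 difference -4.23). Of 19 glutathione S-transferases, 3 were higher and 6 lower (4 and 6 by ratios, 5 and 6 by quantiles): Gstm1 was higher (log2 difference 0.96), and Gstm2 and Gsta4 were lower (log2 differences -5.71 and -4.94). In these families, in that order, lower calls were 27.3% and 31.6% of the list, near the 26.0% of all genes. Higher calls were 27.3% and 15.8%, where 3.84% of all genes were higher. In the list for acylation and N-acetylation, 6 of 18 members were higher and 1 was lower (2 without whole kidney replicate 1, m1 replicate 4, m3 replicates 2 or 4, or replicate 4 of each set). Acy1 and Acy3, which remove acetyl groups from amino acids and from mercapturates, were higher (log2 differences 1.17 and 0.94). Nat8, which acetylates cysteine conjugates into mercapturates, and Acsm3, a medium-chain acyl-CoA synthetase, were higher (log2 differences 0.82 and 0.99). Acy3 was at 4965 to 6200.5 TPM (median 5604) against 2856, 3316 and 2562 TPM, one of the 10 largest rises in TPM. Ces2c, a carboxylesterase, was higher (log2 difference 1.12), while its relative Ces1g and the epoxide hydrolase Ephx1 were lower (log2 differences -3.28 and -3.41).

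**Figure D3:**
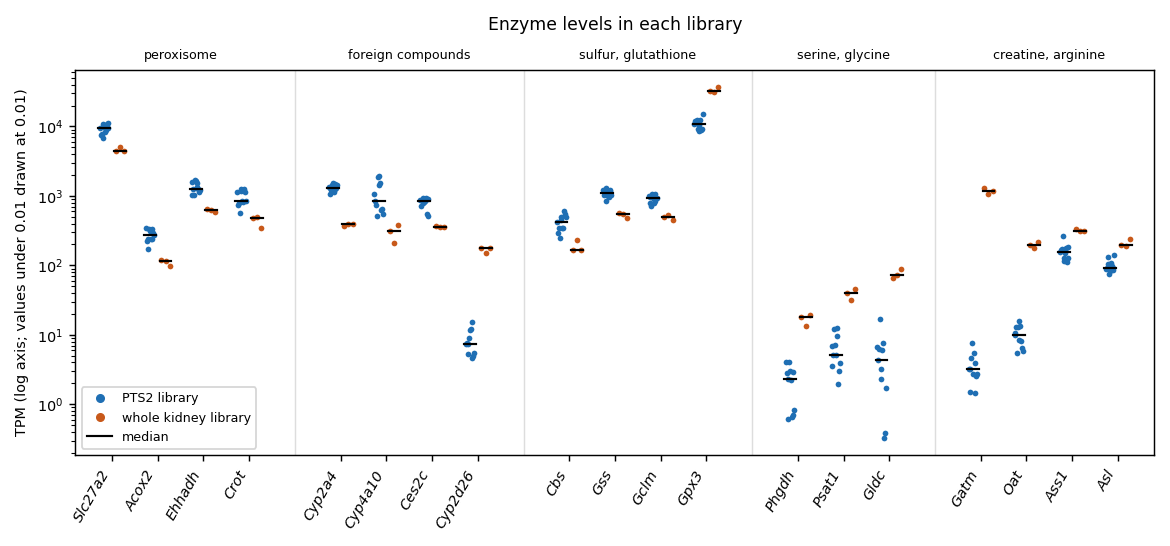
Level in TPM (log axis) of 19 enzyme genes in each of the 11 PTS2 libraries (blue) and 3 whole kidney libraries (orange), with the median of each group as a bar. Genes of the peroxisome and of glutathione synthesis lie higher in the tubules, and Phgdh, Psat1, Gldc, Gatm and Oat lie lower.

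Steroid-converting enzymes held the second-largest upward difference among the named genes. Hsd17b2, which inactivates estradiol and testosterone, was at 55.9 to 96 TPM (median 74.7) against 23.9, 21.1 and 14.5 TPM. The tubules lay clearly above the kidney libraries, and the log2 difference was 1.89 ± 0.16 (SE; adjusted p = 5.5e-08, limma). Akr1c14, a 3-alpha-hydroxysteroid dehydrogenase, was higher (log2 difference 0.93). Hsd11b2, which shields the mineralocorticoid receptor from glucocorticoid in the distal nephron, had a PTS2 median of 0.11 TPM and a kidney mean of 87.8 TPM (log2 difference -6.29). Over the list, 4 of 23 members were higher and 4 lower (10 and 3 by ratios, 8 and 3 by quantiles), so the even split was that of the TPM as deposited.

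Genes of glutathione synthesis were higher, and the secreted peroxidase was lower. Gss (glutathione synthetase) was at 835 to 1284 TPM (median 1085) against 565, 549 and 484 TPM. Gclm (the modifier subunit of the first step) was at 720.1 to 1077 TPM (median 942) against 492, 531 and 448 TPM. Both were higher in every tubule than in every kidney library, with log2 differences of 1.03 ± 0.11 (SE; adjusted p = 1.45e-06, limma) and 0.90 ± 0.11 (SE; adjusted p = 5.01e-06, limma). Sod3, an extracellular superoxide dismutase, was higher (log2 difference 0.77). Gpx3, the secreted glutathione peroxidase made by proximal tubule, was at 8654 to 14949 TPM (median 10686) against 32056, 31262 and 36744 TPM. All tubules lay below the kidney libraries, with a log2 difference of -1.63 ± 0.15 (SE; adjusted p = 1.61e-07, limma). The summed level of the list, Gpx3 included, was 64.5% of the kidney mean, while 4 of 24 members were higher and 3 lower (12 and 2 by ratios, 5 and 3 by quantiles). Gpx1 did not pass (log2 difference 0.17, limma adjusted p = 0.385). The related Gpx6 had a PTS2 median of 0.32 TPM and a kidney mean of 80.9 TPM (log2 difference -5.75).

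Metal-binding genes included the metallothioneins Mt1 and Mt2, which buffer zinc and copper. Mt1 was at 0.06 to 11.8 TPM (median 3.64) in PTS2 and 417, 360.1 and 474 TPM in kidney. Mt2 was at 0 to 0.92 TPM (median 0.24) and 33.3, 37 and 51.9 TPM. Neither overlapped between the groups, and both were lower, with log2 differences of -6.83 ± 0.57 (SE; adjusted p = 6.07e-08, limma) and -5.04. The zinc and manganese importer Slc39a8 was higher, at 35.8 to 114 TPM (median 60.8) against 32.3, 32.4 and 29.7 TPM (log2 difference 1.13). Of the 18 members of the list, 2 were higher (1 without whole kidney replicate 3 or m3 replicate 1) and 8 lower (5 without whole kidney replicate 1) (2 and 7 by ratios, 4 and 8 by quantiles).

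Receptors for hormones were called in both directions, with 4 of 31 higher and 14 lower (5 and 11 by ratios, 9 and 12 by quantiles). These are 12.9% and 45.2% of the list, where 3.84% and 26.0% of all genes were called. Their summed level was 2684 to 3699 TPM (median 3327) in PTS2 against 2464 to 2605 TPM, or 129% of the kidney mean, without overlap. Much of that sum was the growth hormone receptor (Ghr). The list was not summed without Ghr, so the higher sum says little of the other receptors. Ghr was at 1296 to 2321 TPM (median 1784) against 935, 949.7 and 929.7 TPM. Each tubule exceeded each kidney library, with a log2 difference of 0.99 ± 0.14 (SE; adjusted p = 2.64e-05, limma). The liver X receptor alpha (Nr1h3) was higher (log2 difference 0.82). Receptors of the distal nephron were at or near 0: Avpr2, the vasopressin receptor, had a PTS2 median of 0.02 TPM and a kidney mean of 29.3 TPM, and Casr, the calcium-sensing receptor, 0.01 and 10.9 TPM. Among 30 transcription factors, 1 was higher, Cebpb (log2 difference 0.73), and 14 were lower (3 and 11 by ratios, 5 and 8 by quantiles). The list's median log2 difference was -0.61, and -0.02 after quantile normalization. The proximal regulator Hnf4a, chosen after its values were seen, did not pass (log2 difference -0.15, limma adjusted p = 0.284). The intercalated cell factor Foxi1 and the collecting duct factor Gata3 were lower (log2 differences -4.65 and -2.80).

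**Figure D4:**
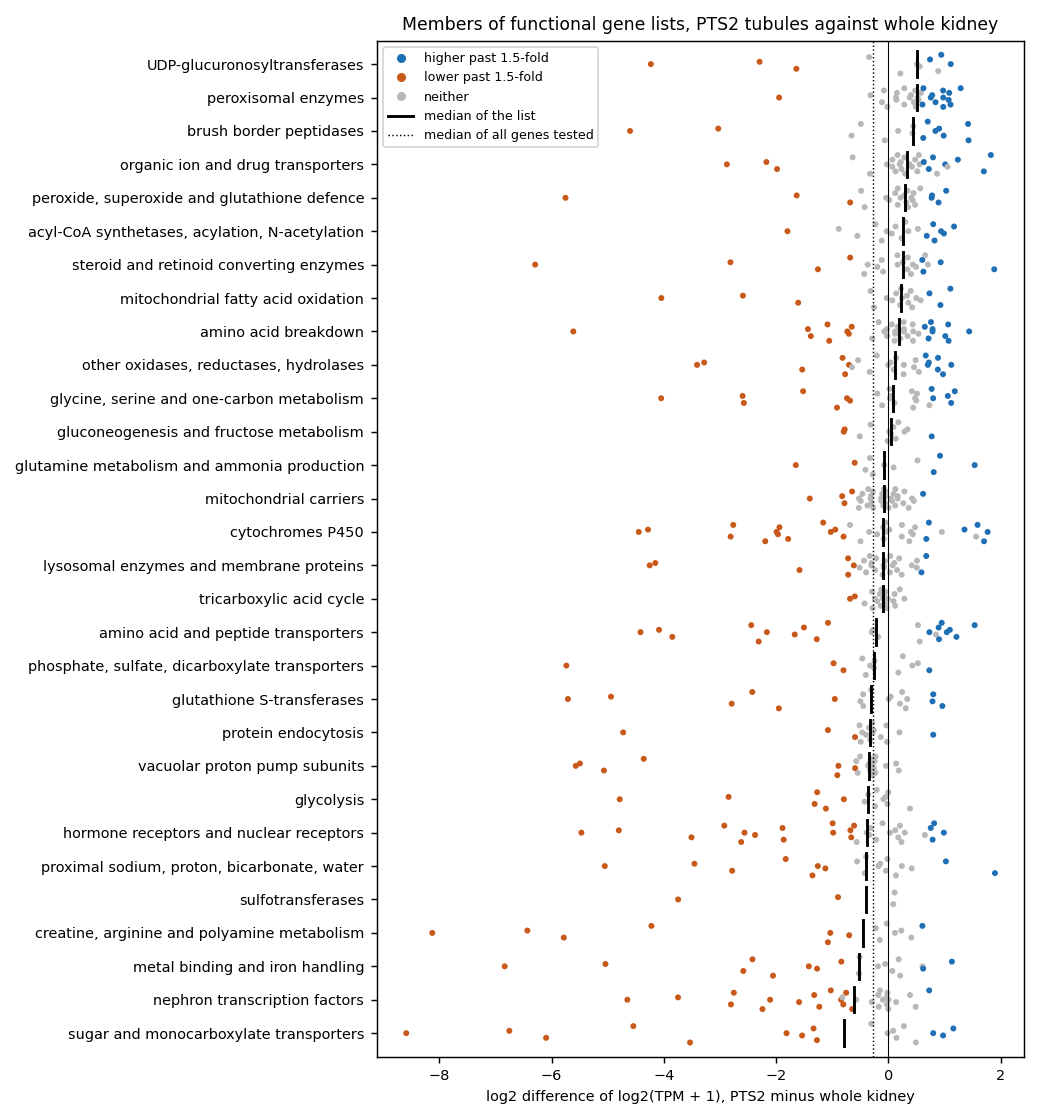
Difference of log2(TPM + 1), PTS2 minus whole kidney, of each tested member of 30 functional gene lists: blue called higher, orange called lower, grey neither. Black bars are list medians and the dotted line is the median of all genes tested, -0.27. Peroxisomal enzymes (median 0.51) and UDP-glucuronosyltransferases (median 0.51) lie highest, and sugar and monocarboxylate carriers (median -0.79) lowest.

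Functions of other segments and cells were the most depleted. Genes that are near 0 in tubules passed the filter on low values through the kidney libraries, so their counts describe and do not test the lists. Genes of salt reabsorption in the thick ascending limb summed to 20.6 to 90.6 TPM (median 32.9) in PTS2 and 3301 to 3653 TPM in kidney, and 11 of 12 members tested were lower. Those of salt, calcium and magnesium transport in the distal convoluted and connecting tubule summed to 202 to 308 TPM (median 232) against 5256 to 6706 TPM, with 12 of 14 lower. Those of the collecting duct summed to 32.1 to 62.5 TPM (median 40.9) against 1246 to 1453 TPM, with 18 of 20 lower. Umod, the uromodulin gene of the thick ascending limb, had a PTS2 median of 9.02 TPM and a kidney mean of 1981 TPM. The same values were 0.84 and 334 TPM for Slc12a1, the furosemide-sensitive salt cotransporter, 0.35 and 179 TPM for Slc12a3, the thiazide-sensitive one, and 0.95 and 464 TPM for Aqp2, the water channel regulated by vasopressin. Of the collecting duct list, 16 of 22 genes had a PTS2 median under 0.1 TPM, among them Scnn1b, Scnn1g, Slc4a1 and Slc26a4.

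Signal of cells outside the tubule epithelium was lower but less completely. The endothelial list summed to 34.3 to 139 TPM (median 63) in PTS2 against 486 to 523 TPM, the stroma and matrix list to 42.9 to 87.1 TPM (median 61.1) against 556 to 634 TPM, and the list for macrophages, antigen presentation and lymphocytes to 532 to 863 TPM (median 641) against 2067 to 2388 TPM. The glomerular list summed to 179 to 275 TPM (median 226) against 514 to 531 TPM, and 6 of its 18 genes, among them Nphs1, Wt1, Ptpro, Plce1 and Nes, had a PTS2 median under 0.1 TPM. All 17 endothelial and all 18 stromal genes tested were below every kidney library in every tubule, as were 15 of 16 immune genes. In the endothelial list Vwf and Cldn5 had PTS2 medians under 0.1 TPM, and in the stromal list 10 of 25 genes did. The part of the kidney's other cells in the lower values of shared genes such as Car2, Hk1, Pkm and Slc3a2 was not tested.

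Across all genes, the largest upward differences not yet given were in Higd1c (log2 difference 1.55), Arsg, a lysosomal sulfatase (log2 difference 1.51), Rdh16f2, a retinol dehydrogenase relative (log2 difference 1.49), and Reep6 (log2 difference 1.45). The largest rise in TPM was in Kap, the androgen-regulated kidney protein, at 37424 to 62481 TPM (median 58043) against 30086, 29749.9 and 29581 TPM. All tubules lay above the kidney libraries, with a log2 difference of 0.88 ± 0.13 (SE; adjusted p = 4.6e-05, limma). Chpt1, a choline phosphotransferase, and Tmem176a were also among the 10 largest rises, at PTS2 medians of 4332 and 3212 TPM and kidney means of 2527 and 1733 TPM. The mitochondrially encoded mt-Co1 was at 4502 to 6779.5 TPM (median 5555) against 1287, 1234 and 2929 TPM, and other mitochondrially encoded genes of the same list, among them mt-Co2 and mt-Co3, are listed at 0 in every library. Downward, Miox, which breaks down inositol, and Spp1, osteopontin, were among the 10 largest losses in TPM, with PTS2 medians of 3477 and 10.4 TPM and kidney means of 5521 and 1436 TPM. The call of Miox was lost with median-of-ratios rescaling (-0.44). Acss1, the mitochondrial acetyl-CoA synthetase, had one of the 15 largest downward differences (log2 difference -7.03).

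The tubules also varied among themselves. Among genes with a PTS2 mean of at least 100 TPM, the median coefficient of variation over the 11 tubules was 14.5% for the 219 genes called higher, 9.52% for the 1247 called neither way and 12.7% for the 61 called lower. Of the genes called higher, Cyp4a10 varied by set, with means of 797, 1692 and 606 TPM in m1, m2 and m3. The difference between sets was not tested. Replicate 4 of m1 was the lowest tubule for 179 of the 464 genes called higher. Without it, 513 genes were higher and 3190 lower. Replicate 2 of m1 was the lowest for 88 of the genes called higher and for 1243 of the 3132 called lower. With that library left out, 487 genes were higher and 3103 lower. Tubules also varied with the replicate number, whose meaning the labels do not give. Replicate 4 had the highest summed level of its set in all 3 sets for 8 of the 44 lists and the lowest for 4. The same counts were 8 and 3 for replicate 1, and 1 and 5 for replicate 2. For the cytochromes P450 the sums in replicate 4 were 19547, 19826 and 24581 TPM in m1, m2 and m3, against 14519 to 17720 TPM in the other tubules. For the phosphate, sulfate and dicarboxylate carriers they were 7382, 6930 and 7728 TPM, against 4611 to 6135 TPM. The glutathione S-transferases ran the other way, at 4129, 4278 and 4369 TPM against 4653 to 5586 TPM. For each of these lists, replicate 4 of every set lay outside the range of the other 8 tubules. With replicate 4 of each set left out, 538 genes were higher and 3416 lower.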

How the data were processed

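Single-tubule and whole kidney RNA-Seq libraries of male C57BL/6 mice were compared. The authors deposited 1 table of TPM values for 47069 genes, in which each library sums to the same total apart from rounding. The submitters' processing notes name STAR 2.5.1b, RSEM 1.2.31 and GRCm38.p5, without giving their roles. TPM keep no depth, so no counting error can be given, and no count test was run. Another 4 columns, which hold means and errors computed by the authors, were left aside.

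The test was limma's (version 3.58.1, R 4.3.3) on log2(TPM + 1), with the set as block in duplicateCorrelation and a trend in eBayes. It covered the 12069 genes whose mean over the 14 libraries was 1 TPM or more, and p-values were adjusted over all of them (Benjamini-Hochberg). The set correlation was 0.0519. On simulated data with 200 changed genes, the test recovered 176 at a log2 difference of 1 (9 false calls) and 197 at 2 (4 false calls). In the data 464 genes were called higher and 3132 lower, so these figures describe a case with far fewer changes. The members and the 44 gene lists were chosen with earlier results of these data known. Of the 1479 genes in the lists, 1063 passed the filter. Counts and medians over the lists are descriptions and not tests.

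Named genes were the 4 markers, up to 4 members per list and direction, and their relatives by symbol stem. From all genes, up to 15 per direction by difference and 10 per direction by TPM change were added. Members had to be called, not overlap between groups and reach 5 TPM in the higher group (20 TPM over all genes, not for the TPM change). Ass1, Asl, Cubn, Lrp2, Hnf4a, Pck1, G6pc, Mep1b and the genes named only for a median under 0.1 TPM were chosen after their values were seen. Promoters come from RefSeq (GRCm38.p6). Python 3.11.15 (pandas 2.3.3, numpy 2.4.6, matplotlib 3.10.9) was used for lists, motifs and figures. Alternatives were a pseudocount of 0.1, other filters, scalings and blocks, 1 mean per set, all 12 tubules and each library left out. Leaving out replicate 4 of each set, and Napsa and Cndp2 from the peptidase list, was chosen after seeing the data. Some genes that met the naming rule are not reported here.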

Additional observations from a re-analysis of the deposited data

Results flagged for a closer look

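Replicate 3 of set m3, which no comparison above used, carried transcripts of the thick ascending limb: its summed level of that list was 1873 TPM (1872.85), where the highest of the 11 tubules compared reached 90.6 TPM and the kidney libraries 3301 to 3653 TPM. With it included, 468 genes were higher and 3090 lower. No test was made of this single library.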

How the results depend on the processing

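The counts of genes followed the scaling and the filter. After median-of-ratios rescaling 1110 genes were higher and 2021 lower past 1.5-fold, and after quantile normalization 2155 and 1494. With a mean of at least 10 TPM required, 942 were lower, and 3038 had an adjusted p under 0.05 in limma; without a filter 9241 did, and in each case a different number of genes was tested. Leaving out each library in turn gave 355 to 513 higher and 2728 to 3263 lower, the fewest higher genes without whole kidney replicate 3. Replicate numbers did not pair tubules with kidney libraries: the mean correlation of their deviations was -0.0114 over 8 same-numbered pairs and 0.00363 over 25 others. Same-numbered tubules of different sets deviated together to a small degree, with a mean correlation of 0.153 (0.0203 to 0.276) over 10 pairs against -0.0511 (-0.211 to 0.169) over 30 others. In both comparisons the correlations nearly cancel over all pairs, so the mean of the other pairs is not independent of that of same-numbered pairs. Fitting the replicate number as a block gave 520 genes higher, 3281 lower and 6207 with an adjusted p under 0.05. No called gene named by rule or in the text changed its direction under an alternative, and at most 19 of them lost the call under any one, which was median-of-ratios rescaling. The depth is unknown.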
